A study of Mus musculus with 16 samples.

Results

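Ribosomal proteins of the cytosol build the small subunit, which reads the mRNA, and the large subunit, which joins amino acids into protein. Their mRNAs are among the most abundant of any cell, they are made in step with ribosomal RNA, and many begin with a run of pyrimidines through which mTORC1 sets their translation. In brain, demand for new ribosomes is known to be high in dividing progenitors and in neurons that are still growing, and lower once cells have matured. The genes that encode these proteins were followed here in mouse hippocampus on Illumina bead arrays, on which each probe is read as a fluorescence intensity. Members were the probes whose symbol begins with Rpl or Rps and a number, or names a protein of the P stalk or Rpsa, without the S6 kinase genes and the Rps19-binding protein, taking the brightest probe of each symbol when its detection p was under 0.05 on 4 or more of the 16 arrays. Of 63 symbols with 78 probes, 58 passed. They comprised 29 large-subunit genes, 25 small-subunit genes, 3 paralogues (Rpl3l, Rpl36al and Rps27l) and Rplp1 of the P stalk, out of 25697 probes on the array.

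The series held 4 groups of 4 arrays each: wild-type (WT) mice at postnatal day 1 (P1), Mef2c-het mice at P1, WT mice at P30 and Mef2c-het mice at P30. Mef2c-het mice, which the labels call KO, carried 1 allele of the transcription factor Mef2c that lacks exon 2 and 1 intact allele in every cell. The WT mice were described as littermates and both genotypes were on a C57BL/6J background, with no treatment in any group. RNA came from whole hippocampus, so that fewer cells of a type and less RNA per cell cannot be told apart in any value below. The labels give neither the sex nor the litter of the mice nor the chip of an array, and nothing says whether the ages were hybridised together, so p-values measure the spread between these samples. Xist and Y-linked probes read 5 of the P1 mice as female (3 WT and 2 Mef2c-het) and all P30 mice as male.

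Across arrays, 12638 to 14150 probes were detected, each from a median of 36 to 39 beads, and the number of arrays limits the precision. The 5th percentile of intensity was 140.0 to 161.4 on 5 arrays (WT P1 replicate 8, Mef2c-het P1 replicate 8, WT P30 replicates 6 and 7, and Mef2c-het P30 replicate 7) and 105.8 to 130.8 on the other 11. Of the Mef2c probes, 2 were detected on all arrays, and their difference between Mef2c-het and WT was 0.07 and -0.01 on the log2 scale at P1 and -0.29 and -0.24 at P30, with adjusted p of 0.976 to 1.00. Where these probes lie relative to exon 2 is not given, so they do not check the genotype labels. Prox1, a marker of dentate granule neurons, was detected on 16 arrays by its brighter probe and on 3 by its other. Of further hippocampal markers, Wfs1 was detected on 16 arrays, Zbtb20 on 15 and Neurod6 on 7.

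Apart from Rpl3l, every member was detected on all 16 arrays. Of the 58, 53 lay in the top 10% of all probes by mean intensity and 35 among the 257 probes of the top 1%. Rpl3l, known from skeletal muscle and heart, was detected on 8 arrays and had the lowest mean intensity of the members, 156. The 5 symbols left out (Rpl14, Rpl17, Rpl6, Rplp2 and Rps23) had 1 probe each that was detected on 0 arrays, with mean intensities of 130 to 144, although their proteins belong to every ribosome. A dim probe is therefore a bound on what that probe reads and says nothing of the gene. Ribosomal protein genes have many processed pseudogenes, and whether a probe also matches such copies was not tested, since probe sequences were not used here. The members lay on 16 chromosomes, with 12 on chromosome 7 and 4 on X.

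The starts of 44 members were found in the RefSeq promoter windows of build GRCm38.p6, which hold 300 bases around each annotated start. The ETS core CCGGAAG, searched on both strands, was in 36.4% of these members (16) and in 9.93% of all 27025 genes in the table. The YY1 core AAGATGG, searched on both strands, was in 20.5% of members (9) and in 7.28% of all genes, and the pyrimidine run CTTTCC on the gene strand was in 38.6% of members (17) and in 16.01% of all genes. A match describes the letters only. The windows below, shown because they belong to members with a large fall, a rise or no call with age, hold the motif in capitals and run 5′ to 3′ along the gene. Positions are those of the first capital, counted from 1 at the annotated start and negative before it. The runs of Rpl22 and Rpl23 thus lie before the start they are counted from and are not the run with which that mRNA begins. Rpl22 has more than 1 annotated start.
Rpl7a, YY1 core, position 19, chr2:26910813-26910842, + strand: cagcagccgagcAAGATGGtgagtgtctct
Rps26, YY1 core, position 26, chr10:128626464-128626493, - strand: agtcttggctccAAGATGGtgagtgtcgcc
Rps27l, ETS core, position 10, chr9:66946083-66946112, + strand: gccgcctctatcCCGGAAGttgctgagggg
Rpl18, pyrimidine run, position 4, chr7:45718062-45718091, + strand: tcgcaggccgctCTTTCCccgcccactccg
Rpl22, pyrimidine run, position -32, chr4:152325682-152325711, + strand: tctgactcctccCTTTCCcgacagccgact
Rpl27a, ETS core on the other strand, position -169, chr7:109519014-109519043, + strand: gagctaccggggCTTCCGGgggcgggcgcc
Rpl23, pyrimidine run, position -95, chr11:97782517-97782546, - strand: tcttaagcgcagCTTTCCcacgcagaacgg
Rpl37, ETS core, position -23, chr15:5116578-5116607, + strand: caccaagacccgCCGGAAGtagtttcctgg
Rpl41, ETS core, position -56, chr10:128549207-128549236, - strand: ctagtaaggcagCCGGAAGtcgctgtctcg
The ETS core was present both in members that fell by over 1 on the log2 scale (Rps26 and Rps27l) and in members that were not called (Rpl37, Rpl41 and Rps21). The median age effect in WT was -0.70 in members with it and -0.78 in the other 28 with a window. It was -0.86 with and -0.72 without the YY1 core, and -0.74 with and -0.72 without the pyrimidine run.

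The question put to the ages was how ribosomal protein mRNA differs between the newborn hippocampus and the hippocampus at P30. Nearly all members were lower at P30 in WT mice: 49 of 58 were lower and 3 higher at an adjusted p under 0.05 (limma), and 6 were not called, where 31.7% of all 14777 probes tested were lower and 28% higher. The median log2 fold change of the members was -0.72, or 1.65-fold lower at P30, against -0.03 over all probes. In 45 members every P30 array lay below every P1 array, where 27.8% of all probes did so, and in 2 (Rpl27a and Rpl3l) every P30 array lay above, where 25.3% of all probes did so. Rpl3l was detected on no P1 array, so its place among the higher members followed in part from the detection filter. Small-subunit genes (23 of 25 lower, none higher, median -0.69) and large-subunit genes (24 of 29 lower, 2 higher, median -0.77) stood close to each other in count and median. With sex as a covariate 44 members were lower and 2 higher, with a median of -0.65.

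In Mef2c-het mice 43 of 58 members were lower and 2 higher at P30, and 13 were not called, where 31.4% of all probes were lower and 26.9% higher. The median of the members was -0.59, or 1.51-fold lower. The arrays of the ages did not overlap in 42 lower members, beside 28.2% of all probes, and in the same 2 higher ones, beside 24.3% of all probes. Rpl3l is counted among these 2 with the same limit. With sex as a covariate 41 were lower and 2 higher. All 43 members called lower in Mef2c-het mice were also called lower in WT mice.

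**Figure D1:**
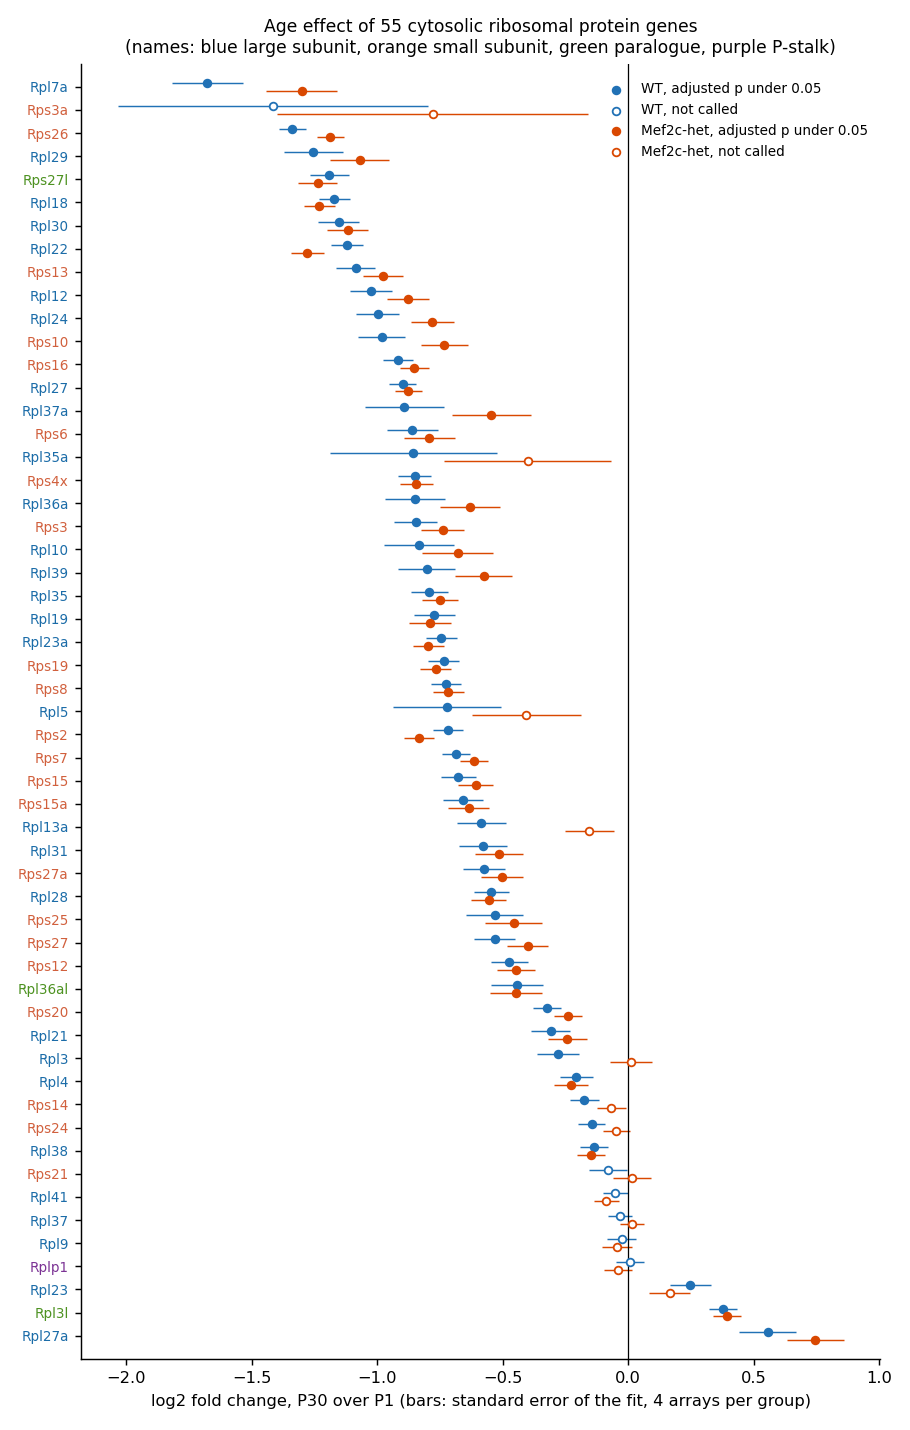
Log2 fold change of P30 over P1 for 55 members in WT (blue) and Mef2c-het (orange) mice, with the standard error of the limma fit as bars, in the order of the WT values; filled points have an adjusted p under 0.05. Most points lie left of 0 in both genotypes, down to -1.68 for Rpl7a in WT. Rpl27a and Rpl3l lie right of 0 in both, and Rpl3l was detected on P30 arrays only.

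The intensity carried by the 58 probes together was also lower at P30 before any normalization. They held 4.54 to 4.80% of the summed intensity of all probes on the WT P1 arrays (mean 4.68 ± 0.115, SD, n = 4) and 4.08 to 4.996% on the Mef2c-het P1 arrays (4.58 ± 0.382). At P30 they held 2.99 to 3.26% in WT (3.12 ± 0.127) and 2.99 to 3.39% in Mef2c-het mice (3.24 ± 0.177). The ages did not overlap in either genotype, while the genotypes overlapped at both ages. Such a share is of fluorescence and not of RNA, since probes differ in how brightly they report.

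**Figure D2:**
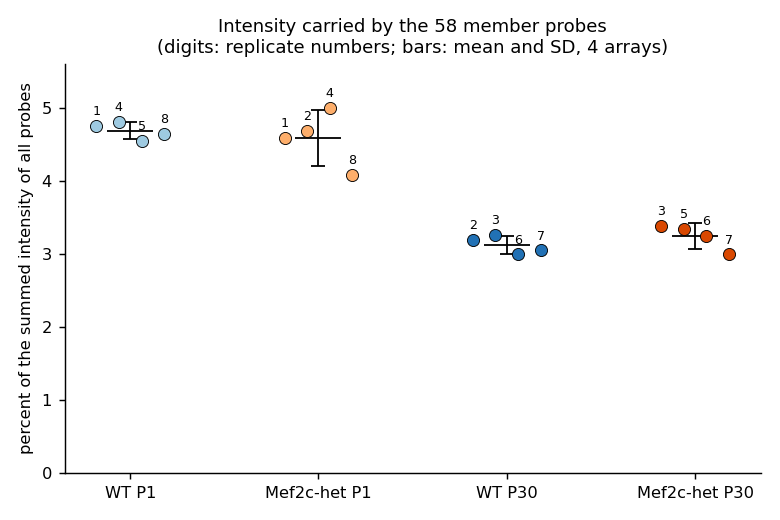
Percent of the summed deposited intensity of all probes that the 58 member probes carried on each of the 16 arrays, by group, with replicate numbers beside the points and the mean and SD of 4 arrays as bars. Every P1 array lies at 4.08% or above and every P30 array at 3.39% or below, and the lowest P1 point is Mef2c-het replicate 8.

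Among the largest falls that passed the test in WT mice were those of Rpl7a, Rps26, Rpl29 and Rps27l. Rpl7a, a large-subunit protein, read 12.53, 12.99, 12.89 and 12.54 at P1 and 11.32, 11.22, 10.86 and 10.84 at P30 in WT. It fell by 1.68 ± 0.141 (adjusted p = 2.78e-08), and in Mef2c-het mice by 1.30 (adjusted p = 6.10e-07), with no overlap between ages in either genotype.

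Rps26, which lies at the mRNA exit channel and is among the genes mutated in Diamond-Blackfan anaemia, had the smallest adjusted p of all members. It read 14.13, 14.08, 14.13 and 14.23 in WT at P1 and 12.90, 12.71, 12.77 and 12.83 at P30. Its 4 arrays of each group differed by little, and it fell by 1.34 ± 0.0544 in WT (adjusted p = 3.36e-12) and by 1.19 in Mef2c-het mice (adjusted p = 1.63e-11). Rpl29, a large-subunit protein, read 13.14, 13.39, 13.24 and 12.96 at P1 and 12.03, 12.04, 11.73 and 11.90 at P30 in WT, a fall of 1.25 ± 0.118 (adjusted p = 1.09e-07), beside 1.07 in Mef2c-het mice. A further, dimmer probe of Rpl29 fell by 0.96 in WT and 0.91 in Mef2c-het mice. In all, 10 members fell by 1 or more in WT, among them Rpl12, Rpl18, Rpl22, Rpl30 and Rps13, and 8 of the 10 did so in Mef2c-het mice, the exceptions being Rpl12 (-0.88) and Rps13 (-0.98).

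Among the paralogues, Rps27l, a near copy of Rps27 that is known as a p53 target, had the larger fall of the pair. Rps27l read 13.00, 13.06, 12.97 and 13.14 in WT at P1 and 11.85, 11.74, 11.93 and 11.88 at P30. Rps27 read 13.93, 14.12, 14.00 and 13.94 at P1 and 13.51, 13.58, 13.43 and 13.35 at P30. Both groups of arrays lay apart in both genes, with differences of -1.19 ± 0.0768 for Rps27l (adjusted p = 1.08e-09) and -0.53 ± 0.0813 for Rps27 (adjusted p = 2.88e-05) in WT, and -1.24 and -0.40 in Mef2c-het mice. The difference between the 2 genes was not tested, and transcripts of a close copy can add to either probe. Rpl36al and Rpl36a, another such pair, fell by 0.44 (adjusted p = 0.00141) and 0.85 (adjusted p = 1.30e-05) in WT and by 0.45 and 0.63 in Mef2c-het mice.

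Rpl3l was not detected on any P1 array and was detected on all 8 P30 arrays. It passed the detection filter only through the P30 arrays, where it is high, so its place among the members called higher followed in part from that filter and its difference is given as a description. Without it, 2 members were higher in WT and 1 in Mef2c-het mice. At P30 it was at least 1.11-fold higher in WT and at least 1.10-fold higher in Mef2c-het mice, where the bound sets the P30 mean against the lowest signal among detected probes on each P1 array. The log2 values were 7.09, 7.13, 7.09 and 7.08 at P1 and 7.47, 7.45, 7.58 and 7.38 at P30 in WT. The probe stayed close to the detection limit at both ages. Rpl3, the member it copies, which lies near the site of peptide bond formation, read 14.30, 14.36, 14.30 and 14.25 at P1 and 14.01, 14.25, 13.90 and 13.93 at P30 in WT. Its arrays touched between the ages, and it was lower by 0.28 ± 0.0834 (adjusted p = 0.00814). In Mef2c-het mice its difference was 0.01 (adjusted p = 0.929), and without the 5 arrays of higher background the WT difference was -0.19 (adjusted p = 0.108).

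The 2 members above background at both ages that were called higher in WT were Rpl27a and Rpl23, both of the large subunit. Rpl27a read 10.71, 10.81, 11.17 and 10.72 in WT at P1 and 11.51, 11.49, 11.37 and 11.27 at P30, and 10.90, 10.86, 11.14 and 10.65 against 11.66, 11.73, 11.69 and 11.44 in Mef2c-het mice. Every P30 array lay above every P1 array in both genotypes, with a rise of 0.56 ± 0.113 in WT (adjusted p = 4.71e-04) and 0.74 ± 0.113 in Mef2c-het mice (adjusted p = 2.78e-05). Its further probe, detected on 7 arrays, showed 0.02 (adjusted p = 0.850) in WT and -0.02 in Mef2c-het mice. Rpl23, known to bind Mdm2, had 3 probes of which the brightest gave 0.25 in WT (adjusted p = 0.0163) and 0.16 in Mef2c-het mice (adjusted p = 0.0981). The other two fell by 0.43 (adjusted p = 8.14e-04) and 0.38 (adjusted p = 0.00214) in WT, so the probes of Rpl23 were called in opposite directions. With the mean over the 3 probes Rpl23 fell by 0.19 in both genotypes, and with each array scaled to a common median the brightest probe gave 0.02 in WT. Its call in WT was also lost without WT P1 replicate 4 and without WT P30 replicate 6, each leaving 0.20, and without the 5 arrays of higher background (0.20, adjusted p = 0.129).

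The members not called in WT were Rpl37, Rpl41, Rpl9, Rplp1, Rps21 and Rps3a, and none of them was called in Mef2c-het mice either. Rplp1, an acidic protein of the stalk that recruits elongation factors, read 14.92, 14.83, 14.94 and 14.94 at P1 and 14.87, 14.87, 15.02 and 14.89 at P30 in WT, a difference of 0.01 with a 95% interval of -0.11 to 0.12. Rpl41, the smallest of the ribosomal proteins and named after its values were seen, read 14.97, 14.97, 15.02 and 14.97 at P1 and 14.94, 14.85, 14.97 and 14.97 at P30, with an interval of -0.16 to 0.06. These probes were among the brightest on the arrays, with mean intensities of 31360 for Rplp1 and 31702 for Rpl41, where the brightest value of any array was 30734 to 45402. Quantile normalization gives the same value to the same rank on every array. A probe that keeps the same rank therefore reads no change. The part of this in the values of Rplp1 and Rpl41 was not tested. With each array scaled to a common median, the WT difference of Rplp1 lay below the interval given here. Rps3a, by contrast, missed the threshold with a large difference and a large spread.

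Members with further known roles fell as well. Rps6, the small-subunit protein that S6 kinases phosphorylate, read 13.59, 13.60, 13.30 and 13.68 at P1 and 12.47, 12.74, 12.67 and 12.84 at P30 in WT, and fell by 0.86 ± 0.102 (adjusted p = 1.69e-06), beside 0.79 in Mef2c-het mice. Rps27a, made as a fusion with ubiquitin, read 11.55, 11.48, 11.30 and 11.55 at P1 and 10.86, 10.72, 10.93 and 11.07 at P30, and fell by 0.57 ± 0.0839 (adjusted p = 1.77e-05), beside 0.50. Both genes lay apart between ages in WT. Rps19, the gene most often mutated in Diamond-Blackfan anaemia and named after its values were seen, fell by 0.74 in WT and 0.77 in Mef2c-het mice.

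The brightest members fell least on the whole, and a relation between brightness and fall over all members was not tested. The 13 members with a mean intensity over 20000 had a median log2 fold change of -0.14 in WT (8 lower and 1 higher), and the 45 others had -0.80 (41 lower and 2 higher). In Mef2c-het mice the medians were -0.09 and -0.72. The 217 probes of other genes in the top 1% by intensity had a median of 0.05 in WT, with 88 higher and 78 lower. Rps24, mutated in Diamond-Blackfan anaemia, and Rpl38, known for its part in translating Hox mRNAs in the embryo, had 2 probes each, and were named after their values were seen. The bright probe of Rps24 fell by 0.14 in WT (adjusted p = 0.0281) and its dimmer probe by 0.85 (adjusted p = 1.65e-07). The bright probe of Rpl38 fell by 0.14 (adjusted p = 0.0474) and its dimmer probe by 0.63 (adjusted p = 6.64e-08). In Rps3, Rpl21, Rpl23 and Rpl27a the brightest probe also fell less than the dimmer ones, or rose. Rps19, Rps27a, Rpl29 and Rpl31 ran the other way, their brighter probe falling more, for example 1.25 against 0.96 in Rpl29. The dimmer probes of Rps19, Rps27a and Rpl27a were close to the detection limit. They had mean intensities of 173, 163 and 161 and were detected on 10, 8 and 7 arrays. The 2 probes of Rpl21 were nearly equally bright, at 319 and 313. The fall of the dimmer Rps3 probe in WT had a standard error of 0.444. Whether the brightest probes were near the ceiling of the scanner was not tested.

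**Figure D3:**
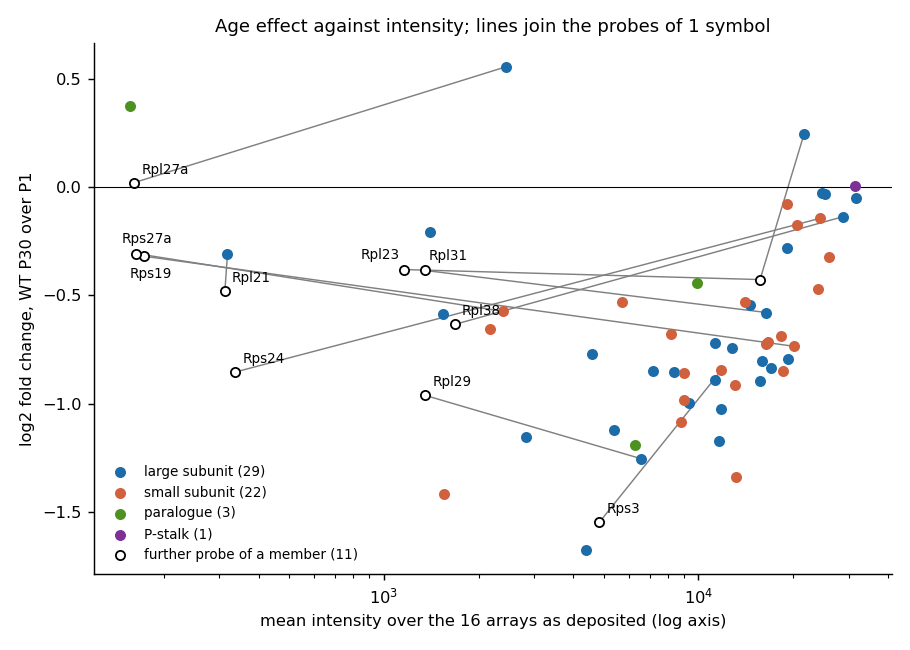
Log2 fold change of WT P30 over P1 for 55 members (filled, by class) and the 11 further probes of 10 of them (open) against mean deposited intensity on a log axis, with lines joining probes of the same symbol. The points at the right edge lie near 0, and the lines of Rps24, Rpl38, Rpl27a and Rps3 rise toward the brighter probe while those of Rps19, Rps27a, Rpl29 and Rpl31 descend.

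A few members split the arrays of a group. Rps3a, a small-subunit protein, read 10.50, 11.74, 11.75 and 9.51 on the WT P1 arrays and 10.43, 10.06, 8.80 and 8.55 on the WT P30 arrays. In Mef2c-het mice it read 10.93, 11.55, 11.26 and 9.31 at P1 and 10.33, 10.59, 10.50 and 8.50 at P30. The lowest values were those of the 5 arrays of higher background, on which it was 1.77 lower on average than on the other arrays of the same group. Its age difference was -1.42 ± 0.618 in WT (adjusted p = 0.0594) and -0.78 in Mef2c-het mice (adjusted p = 0.302), and without those arrays it was -1.09 (adjusted p = 0.00516) and -0.77 (adjusted p = 0.0185). Rpl35a and Rpl5, both mutated in Diamond-Blackfan anaemia, were 1.00 and 0.63 lower on average on the same 5 arrays, and on all 5 of them. Both were called lower in WT with all arrays (-0.86, adjusted p = 0.0351, and -0.72, adjusted p = 0.00869) but not in Mef2c-het mice (-0.40 and -0.41). Without the 5 arrays both were called lower in both genotypes, with -0.52 and -0.53 in WT and -0.37 and -0.36 in Mef2c-het mice. Rps3a, Rpl35a and Rpl5 were named after their values were seen, and the part of background in their spread was not tested further.

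**Figure D4:**
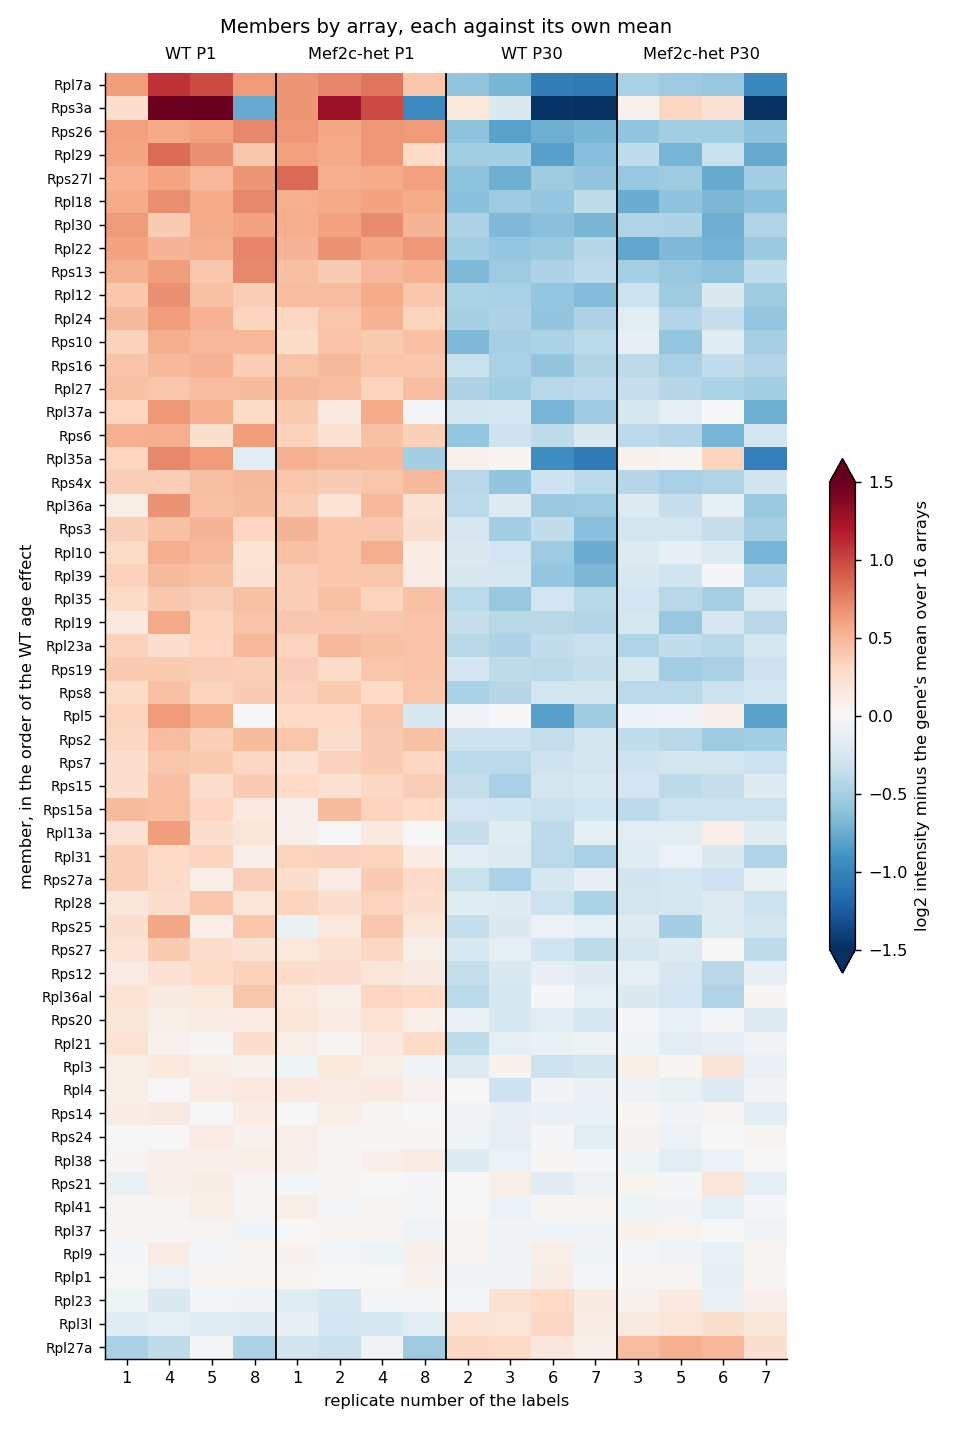
Log2 intensity of 55 members on each of the 16 arrays minus the member's mean over all arrays (red above, blue below, colours saturating at 1.5), with members in the order of the WT age effect. P1 columns are red and P30 columns blue over most of the map, and Rps3a, Rpl35a and Rpl5 are lower on replicate 8 than on the other arrays of both P1 groups and darkest blue on WT P30 replicates 6 and 7 and Mef2c-het P30 replicate 7.

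Some ribosomal protein genes stood on the array under older symbols and so were no members. Of these, Rplp0, the core of the stalk, fell by 1.56 ± 0.0728 in WT (adjusted p = 1.91e-11) and by 1.50 in Mef2c-het mice. The 4 probes of Rps9 fell by 0.69 to 1.73 in WT, and the probe with the largest fall read lower on the 5 arrays of higher background than on the other arrays of the same group. Rpl34 fell by 0.89 and Rps4l by 0.95 in WT, and both fell in Mef2c-het mice as well. The probes of Rpl7l1 fell by 0.48 (adjusted p = 1.80e-05) and 0.29 (adjusted p = 0.0295) in WT. Rpl22l1, the paralogue of Rpl22, showed -0.28 in WT (adjusted p = 0.278) and 0.05 in Mef2c-het mice, while Rpl22 itself fell by 1.12 (adjusted p = 2.74e-10) and 1.28. Rpsa, which doubles as a laminin receptor, was higher by 0.16 in WT (adjusted p = 0.0394) and by 0.04 in Mef2c-het mice (adjusted p = 0.651) on a probe detected on 14 arrays.

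Other parts of the translation machinery were lower at P30 too. All 6 tested genes of ribosome-associated proteins were lower in both genotypes, with medians of -0.78 and -0.74. Among them, Btf3 of the nascent polypeptide-associated complex fell by 1.17 in WT (adjusted p = 7.25e-10) and Fau, which encodes a small-subunit protein fused to a ubiquitin-like protein, by 0.91 (adjusted p = 5.91e-09). Tpt1, another of the 6, was not detected in WT at P30, so its call followed in part from the detection filter. It was at least 1.10-fold lower there. Of 29 initiation factor genes 21 were lower and 2 higher in WT, with a median of -0.57. Eif2s2, a subunit of the factor that brings the initiator tRNA, fell by 1.21 (adjusted p = 2.76e-10) and the helicase gene Eif4a1 by 0.71 (adjusted p = 2.29e-09), while Eif4a2, its neuronal relative, and Eif4h were higher. Of 11 genes listed with the elongation and release factors 9 were lower, and only Eef1a2 was higher. Among the 9 were Eef1e1 (-1.35, adjusted p = 3.81e-07) and Eef2k, which are not elongation factors themselves. Eef1a2, the form of the elongation factor of mature neurons and muscle, rose by 1.93 ± 0.0914 in WT (adjusted p = 2.35e-11) and by 1.90 in Mef2c-het mice.

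Genes for making ribosomes showed the same direction. Of 45 ribosome biogenesis genes tested, 32 were lower and none higher in WT (median -0.53), and 28 were lower and none higher in Mef2c-het mice (median -0.41). Fbl, the methyltransferase of ribosomal RNA, fell by 1.40 in WT (adjusted p = 5.40e-11), from 11.72 ± 0.0976 to 10.31 ± 0.109 (SD, n = 4), and Rsl1d1 of the nucleolus by 0.97 (adjusted p = 6.00e-09). Of 11 genes of RNA polymerase I and its factors, 6 were lower and none higher in WT, with Polr1e at -0.87 (adjusted p = 1.92e-07) and Polr1d at -0.59 (adjusted p = 4.57e-06). The 15 tested genes of the MYC and mTORC1 pathway were mixed, with 5 higher and 3 lower in WT and a median of 0.02. Sesn2, among the 5, was not detected in WT at P1. Mycl fell by 1.67 (adjusted p = 2.33e-11) and Sesn1, an inhibitor of mTORC1, rose by 0.85 (adjusted p = 1.37e-06). Ribosomal proteins of mitochondria, made by a separate set of genes, had 34 of 71 lower and 12 higher in WT, with a median of -0.17. The counts of all these lists stand beside 31.7% lower and 28% higher over all probes in WT. In Mef2c-het mice the shares were 31.4% lower and 26.9% higher.

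Cell type markers moved with age as well, and their part in the falls of the members was not tested. All 7 tested markers of proliferating cells were lower in WT at P30 and 6 of the 7 in Mef2c-het mice. Cdk1 was at least 5.14-fold lower in WT at P30, where it was not detected (adjusted p = 5.43e-13), and Mcm5 fell by 2.22 (adjusted p = 2.87e-12). Their summed intensity in WT was 4563 to 5692 at P1 and 1055 to 1549 at P30. In Mef2c-het mice it was 4086 to 6860 at P1 and 1132 to 1450 at P30, with 3 of the 7 markers detected on all 4 arrays of each P30 group. All 7 tested neuron markers were higher, with summed intensity of 12705 to 19152 and 51548 to 74130 in WT, with the smallest p for Camk2a (3.93, adjusted p = 1.83e-12) and Syt1 (2.16, adjusted p = 2.06e-12). All 8 oligodendrocyte markers were higher, with 2034 to 2718 and 86770 to 116649, with the smallest p for Mag (5.90, adjusted p = 3.59e-16) and Mobp, which was not detected in WT at P1 and was at least 31.6-fold higher at P30 (adjusted p = 4.90e-16). Astrocyte markers were higher in 7 of 8 (Slc1a2 3.08, adjusted p = 3.03e-13, and Gjb6 3.92, adjusted p = 7.75e-12) and microglia markers in 7 of 10 (C1qb 0.70, adjusted p = 2.35e-05, and C1qc 0.70, adjusted p = 8.52e-05). Their summed intensities were 21887 to 25788 and 38633 to 52572 for astrocytes and 3829 to 4614 and 5079 to 7383 for microglia. In Mef2c-het mice the neuron and oligodendrocyte markers were again all higher, with summed intensities of 12023 to 19283 and 51792 to 63145, and of 2047 to 3880 and 87135 to 105294. Astrocyte markers were higher in 7 of 8 there (20399 to 32177 and 35651 to 48292) and microglia markers in 10 of 10 (3011 to 5057 and 5255 to 7407). Of 4 blood markers 2 were lower in WT (Hba-a1 -0.36, adjusted p = 0.0310, and Alas2 -0.25, adjusted p = 0.0399) and 0 in Mef2c-het mice. Over all probes, 31.7% were lower and 28% higher in WT, and 31.4% lower and 26.9% higher in Mef2c-het mice.

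The next question was whether the fall differed between genotypes. No member was called for a difference of the age effect (limma, 0 of 58, where 0% of all probes were), and the smallest adjusted p was 0.998. At an unadjusted p under 0.05 there were 2 of 58, where 2.96% of all probes were. The difference was above 0, a smaller fall or larger rise in Mef2c-het mice, in 42 of 58 members. Of all 14777 probes tested, 6980 were above 0. The median was 0.07 in the members beside -0.01 over all probes. For 44 members the 95% interval of the difference lay within -0.5 to 0.5 on the log2 scale, and the median half-width of that interval was 0.23. Among the marker lists, microglia markers had the largest median difference, 0.32, with 9 of 10 above 0, 3 of 10 at an unadjusted p under 0.05 and 0 called (limma), and their part in the members' differences was not tested. The 6 members called lower in WT but not in Mef2c-het mice were Rpl13a, Rpl3, Rpl35a, Rpl5, Rps14 and Rps24, and none of them passed the test of the difference.

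Rpl13a, known as part of a complex that silences translation of inflammatory mRNAs, had the smallest p for that difference. It read 10.79, 11.19, 10.80 and 10.74 in WT at P1 and 10.22, 10.38, 10.17 and 10.41 at P30. In Mef2c-het mice it read 10.64, 10.55, 10.71 and 10.56 at P1 and 10.40, 10.40, 10.66 and 10.38 at P30. The ages lay apart in WT (-0.59 ± 0.0966, adjusted p = 6.19e-05) and overlapped in Mef2c-het mice (-0.15, adjusted p = 0.185), and the difference was 0.43 ± 0.137 (adjusted p = 0.998, 95% interval 0.14 to 0.72). Rpl3 was the other member under an unadjusted p of 0.05, with 0.29 and an interval of 0.04 to 0.54.

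Between genotypes at P30, no member was called (limma, 0 of 58), where 0.00746% of all 13413 probes, 1 probe, were called in either direction. At an unadjusted p under 0.05 there were 5 members, 3 higher and 2 lower in Mef2c-het mice, where 2.36% of all probes were. The median log2 fold change of the members was 0.04, with 41 above 0 and 17 below, beside -0.01 over all probes. Of all 13413 probes tested, 6029 were above 0. Microglia markers had a median of 0.12, with 8 of 10 above 0, 2 of 10 at an unadjusted p under 0.05 and 0 called (limma). The 95% interval of the members lay within -0.5 to 0.5 for 53 members and within -0.25 to 0.25 for 28. The genotypes lay apart in 1 member, Rps2, where 1.75% of all probes did so.

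Rps2, a small-subunit protein that is a known substrate of arginine methylation, read 13.60, 13.59, 13.54 and 13.63 in WT and 13.53, 13.48, 13.36 and 13.38 in Mef2c-het mice, normalized over the P30 arrays. Its difference was -0.15 ± 0.0610 (adjusted p = 0.976, 95% interval -0.29 to -0.02). Rpl22 read 11.74, 11.68, 11.71 and 11.84 in WT and 11.49, 11.61, 11.55 and 11.71 in Mef2c-het mice, a difference of -0.15 with an interval of -0.31 to -0.003. Rpl18 followed at -0.12, its interval of -0.28 to 0.03 including 0, and the groups overlapped in both. On the other side, Rpl27a read 11.50, 11.48, 11.35 and 11.25 in WT and 11.65, 11.72, 11.68 and 11.43 in Mef2c-het mice, a difference of 0.22 ± 0.0857 (adjusted p = 0.976, 95% interval 0.03 to 0.42). The genotypes overlapped at 1 array, Mef2c-het replicate 7. Rpl3 differed by 0.19 and Rps26 by 0.14, both with overlap. The difference of largest size was that of Rps3a, 0.52 with a standard error of 0.534.

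At P1 no member was called between genotypes (limma, 0 of 57 tested, where 0% of all 13566 probes were); Rpl3l was not tested there. At an unadjusted p under 0.05 there was 1 member, Rpl13a, where 1.62% of all probes were. The median was -0.02, with 39 members below 0 and 18 above, where 6687 of all 13566 probes were below 0. The 95% interval lay within -0.5 to 0.5 for 53 of 57 members. Microglia markers had a median of -0.13 at P1, with 9 of 10 below 0, 3 of 10 at an unadjusted p under 0.05 and 0 called (limma). The genotypes lay apart in 1 member, again Rpl13a, where 1.29% of all probes did so. Normalized over the P1 arrays, it read 10.83, 11.21, 10.84 and 10.78 in WT and 10.68, 10.59, 10.74 and 10.59 in Mef2c-het mice. Its difference was -0.26 ± 0.0995 (adjusted p = 1.00, 95% interval -0.48 to -0.04). Rps6 (-0.14) and Rpl7a (-0.18) came next by p below 0, and Rpl23a (0.08) and Rps27l (0.08) were among the 3 with the smallest p above 0. All 4 overlapped between the genotypes.

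**Figure D5:**
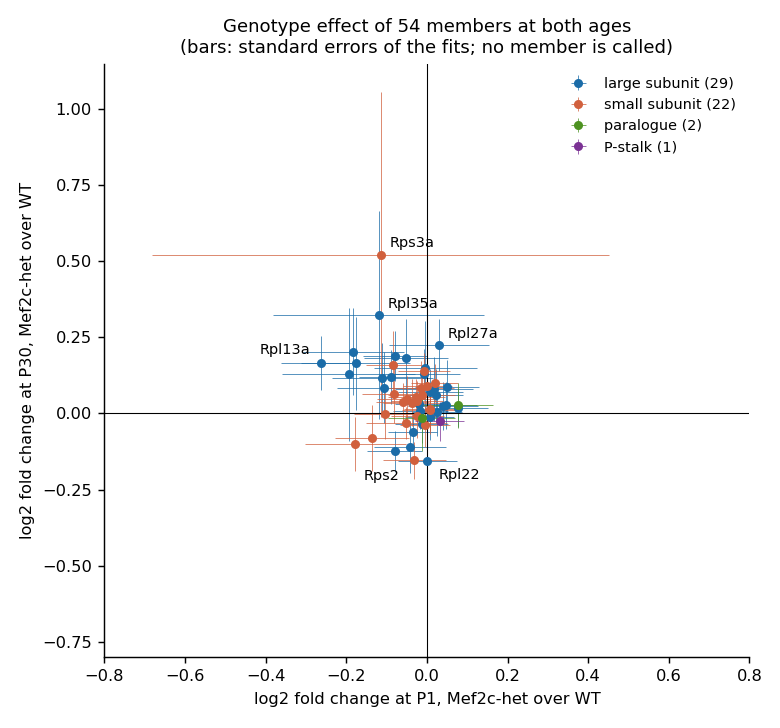
Log2 fold change of Mef2c-het over WT at P30 against that at P1 for 54 members, with the standard errors of the 2 fits as bars and colours by class. The points crowd around 0 on both axes, Rps3a and Rpl35a stand out at P30 (0.52 and 0.32) with the longest bars, and no member is called at either age.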

How the data were processed

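Hippocampal total RNA from 16 mice was labelled with biotin and hybridised to Illumina bead arrays. The authors deposited a non-normalized intensity for every probe and array, with detection p-values, bead counts and bead standard errors; the deposited count of beads behind a value was used only to describe the arrays; whether background was subtracted is not given in the sources used here, and the lowest intensity was 92.8. The submitters' processing notes name lumi and limma. The deposited p-value of detection was used as a filter (under 0.05 on 4 or more arrays of the fit). Intensities were log2-transformed, quantile-normalized and tested with limma 3.58.1 in R 4.3.3 (lmFit, eBayes, two-sided, Benjamini-Hochberg over all probes tested). Age effects and their difference were taken from 16 arrays in 4 groups, and genotype effects from the 8 arrays of an age, normalized alone. Standard errors are of the fit; ± on group means is the SD. The fit was tested on simulated data. Older symbols were named through the RefSeq table (25376 of 25697 probes).

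Counts and medians cover all members, but 3 of them are not reported here singly or plotted by gene. Members and gene lists were chosen with earlier results of these data known. Named were paralogues with the member they copy, stalk genes, Rpsa, Rps27a and Rps6, the 5 largest changes in each direction with age in WT, the 3 smallest p-values in each direction between genotypes at each age, members whose probes were called in opposite directions, and the 2 genes of each other list with the smallest p. Alternatives were another scaling, cyclic loess, normexp, other detection filters, the mean over probes, trended and robust variances, sex as a covariate, omission of the 5 arrays of higher background and of each array, the genotype's 8 arrays alone or all 16 together, and the replicate number as a block.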

Additional observations from a re-analysis of the deposited data

Results flagged for a closer look

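Of 88 groups of 4 arrays examined for the named members, 7 held an array that stood apart from the other 3, where chance gives about 1 in 20, or 4.4. The value for each is the gap to the nearest array divided by the range of the group, and none was weighed further. For Rpl13a, WT P1 replicate 4 was high at 11.19 with the nearest at 10.80 (0.863), and Mef2c-het P30 replicate 6 was high at 10.66 with the nearest at 10.40 (0.908). For Rplp1, replicate 6 stood high among the WT P30 arrays at 15.02 (0.859) and low among the Mef2c-het P30 arrays at 14.77 with the other 3 at 14.94 (1). For Rpl7a, Mef2c-het P30 replicate 7, an array of higher background, was low at 10.93 with the nearest at 11.33 (0.832). For Rps26, Mef2c-het P1 replicate 2 was low at 14.09 with the nearest at 14.15 (0.844). For Rpl3l, WT P1 replicate 4 stood at 7.13 with the nearest at 7.09 (0.834), below detection on every P1 array.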

How the results depend on the processing

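Across the alternatives, the number of members lower at P30 was 44 to 50 in WT and 39 to 45 in Mef2c-het mice. No member was called between genotypes, or for the difference of the age effect, under any alternative run. The WT median of -0.72 became -0.79 with each array scaled to a common median and -0.65 with sex as a covariate, and lay between -0.73 and -0.68 when arrays were left out in turn. Whether replicate numbers pair the samples was not settled: the deviations of same-numbered arrays correlated at 0.09, 0.40 and 0.83 at P1 and at 0.19, -0.53 and 0.71 at P30. The pairs at 0.83 and 0.71 were both of arrays of higher background. WT P30 replicate 6 and Mef2c-het P30 replicate 7, also of higher background but numbered differently, correlated at 0.73. With the replicate number as a block, 0 members were called and the medians were 0.08 for the difference, 0.06 at P30 and -0.02 at P1. Reversed in sign, the cause not being tested, were Rpl23 with the mean over probes (-0.19 in WT and -0.19 in Mef2c-het mice) and members close to 0. Rplp1 in WT gave -0.15 with median scaling, -0.059 with cyclic loess, -0.016 with sex and -0.030 without the 5 arrays of higher background, and -0.032 to 0.019 with arrays left out. Rpl3 in Mef2c-het mice gave -0.10 with median scaling, -0.047 with cyclic loess and -0.039 to 0.064 with arrays left out. Rplp1 in Mef2c-het mice gave -0.054 to 0.0042 with arrays left out, above 0 without P30 replicate 6. Median scaling also ended the calls of Rpl3 in WT (-0.38, adjusted p = 0.0850) and Rps27 in Mef2c-het mice (-0.38, adjusted p = 0.0839), and Rpl23 in Mef2c-het mice was called without P30 replicate 6 (0.22). Probes near the detection limit, such as Rpl3l, give bounds, and the 95% interval of Rps3a reached beyond 0.5 on both sides of 0 between genotypes at each age.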
